A study of Mus musculus with 6 samples.

Results

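The integrin and laminin genes are described here in P19 cells, a mouse embryonal carcinoma (EC) line. The list held 35 genes, 25 integrin subunits and 10 laminin chains, and a gene was measured by the probesets that the array annotation gives to its symbol alone. Of these 35 genes, 28 had probesets of their own (21 integrins and 7 laminins, 904 probesets, 14 to 77 a gene), against 16263 symbols in all. Of the 28 genes, 17 reached the 30th percentile of the mean levels of all symbols and were tested among 11384 symbols. The other 11 were too dim for a test. Itga1, Itga4, Itga10, Itgb8, Lama3, Lama5 and Lamb2 had no probeset of their own and were not analysed here. For Itga4, 32 probesets carry a second symbol as well and were given to neither gene.

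Total RNA was hybridized to Affymetrix Mouse Exon 1.0 ST arrays on 3 days, with 2 arrays a day that the submitters describe as biological duplicates, 6 arrays in all. The Day 0 cells were undifferentiated and untreated. The Day 7 cells (neural-differentiated) and the Day 10 cells (early glial) had been grown as aggregates with 1 µM retinoic acid (RA) for 4 days. All groups are the same cell line, kept in alpha-MEM with serum, and no genotype differed between them. An exon array has a probeset, a small group of probes, for each exon, and the level of a gene was the median over its probesets of log2(intensity + 16). A level with no signal at all would be 4 on this scale. Probes differ in brightness, so a level was compared only with the level of the same gene on other arrays.

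Integrins are receptors of an alpha and a beta subunit that bind the extracellular matrix or other cells and link them to the actin cytoskeleton. Laminins are trimers of an alpha, a beta and a gamma chain and form, with type IV collagen, nidogen and perlecan, the basement membrane on which epithelial cells rest. In the nervous system laminin promotes the outgrowth of neurites through integrins that share the beta1 subunit, and in early embryos the laminin of alpha1, beta1 and gamma1 chains is laid down before other laminins.

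The genes changed in both directions. The laminin receptor subunit Itga6 and the subunit Itgb5 fell between Day 0 and Day 7 and were still below Day 0 on Day 10, whereas Itgav and Itga8 rose on Day 7 and were above Day 0 on Day 10. Itga9 rose on Day 7. Itga7 and Lama1 were higher on Day 10 than on Day 0. Of the other laminin chains with probesets of their own, Lamb1, Lamc1 and Lamc3 did not pass the test on any day. Lama2, Lama4 and Lamb3 were too dim for a test.

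The 250 bases before the start of 3 of these genes are shown because the genes moved in opposite directions in the same cells, 1 that fell (Itgb5) and 2 that rose (Itgav and Itga8). Itga6 and Lama1 had no entry in the table used. They are RefSeq sequences of build GRCm38.p6, written 5′ to 3′ on the strand of the gene. Capitals mark GGGCGG on either strand, the core of the GC box.
Itgb5, chr16:33829415-33829664 (+ strand): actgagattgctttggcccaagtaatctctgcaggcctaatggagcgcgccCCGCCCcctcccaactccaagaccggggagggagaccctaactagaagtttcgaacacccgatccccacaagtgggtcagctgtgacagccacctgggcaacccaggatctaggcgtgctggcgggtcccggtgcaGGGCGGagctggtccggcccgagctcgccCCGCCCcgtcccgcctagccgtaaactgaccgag
Itgav, chr2:83724147-83724396 (+ strand): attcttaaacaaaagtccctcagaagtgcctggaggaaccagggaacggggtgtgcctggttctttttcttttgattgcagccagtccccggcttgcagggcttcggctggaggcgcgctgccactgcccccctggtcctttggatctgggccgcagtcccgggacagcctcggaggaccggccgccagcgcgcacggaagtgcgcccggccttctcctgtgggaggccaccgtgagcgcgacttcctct
Itga8, chr2:12301945-12302194 (- strand): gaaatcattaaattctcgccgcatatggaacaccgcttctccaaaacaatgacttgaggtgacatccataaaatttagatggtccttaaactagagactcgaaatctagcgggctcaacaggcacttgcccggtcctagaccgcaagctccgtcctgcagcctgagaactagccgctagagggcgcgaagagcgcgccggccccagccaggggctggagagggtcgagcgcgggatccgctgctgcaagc
The Itgb5 window held GGGCGG 3 times, and its GC content was 65.2%. The windows of Itgav (64.4% GC) and Itga8 (56.4% GC) held it 0 times. Over all 32851 promoters of this length 32.7% held the motif, and so did 8 of the 23 genes of the list that the table contains (Itga3, Itga4, Itga5, Itgam, Itgb1, Itgb5, Lama5 and Lamb1). AGGTCA, the half-site bound by retinoic acid receptors and other nuclear receptors, occurred in 14% of all promoters on either strand and in 0 of the 23. TATAAA, the core of the TATA box, occurred in 12.4% and in 0 of the 23. Such matches describe the letters of these windows only, and binding of a factor was not measured.

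On Day 7 against Day 0, 3 of the 17 genes tested were called higher (Itga8, Itga9 and Itgav) and 2 lower (Itga6 and Itgb5). A call needed an adjusted p under 0.05 in limma, with Benjamini-Hochberg adjustment over all symbols tested, and a change of at least 2-fold. Of all 11384 symbols tested, 11.2% were called higher and 4.5% lower, so 3 and 2 of 17 lie not far from the background. On Day 10 against Day 0, 4 were called higher (Itga7, Itga8, Itgav and Lama1) and 2 lower (Itga6 and Itgb5), where 7.27% of all symbols were higher and 7.43% lower. Both comparisons use the same Day 0 arrays. Of the 17 genes, Itga8 and Itga11 had a Day 0 mean under the filter level of 6.31 and entered the test through their later days. Itga8 is in both counts of higher genes, so these counts favour a rise. On Day 10 against Day 7, 0 of 17 were called by limma, while 1 higher and 1 lower had an unadjusted p under 0.05. Of all 11384 symbols tested, 312 higher and 1615 lower had such a p in limma. In that comparison 0.36% of all symbols were called higher and 0.334% lower. The median change of the 17 genes was 0.22 on Day 7 against Day 0, −0.11 on Day 10 against Day 7 and 0.40 on Day 10 against Day 0, beside 0.10, −0.25 and −0.11 over all symbols tested.

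Without a test, the duplicates of the 2 days did not overlap for 17 of the 28 genes on Day 7 against Day 0 (15 higher and 2 lower), where 55.2% of all symbols did not overlap. The count was 14 on Day 10 against Day 7 (7 higher and 7 lower, beside 44.2% of all symbols). On Day 10 against Day 0 it was 17 (14 higher and 3 lower, beside 47.6% of all symbols). These shares of all symbols take both directions together, so the splits into higher and lower have no background here. The Day 7 arrays were also brighter as a whole, with a median gene level of 7.60 and 7.61, against 7.27 and 7.42 on Day 0. The Day 10 medians lay on either side of those of Day 0. The part of this brightness in the splits was not tested.

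**Figure D1:**
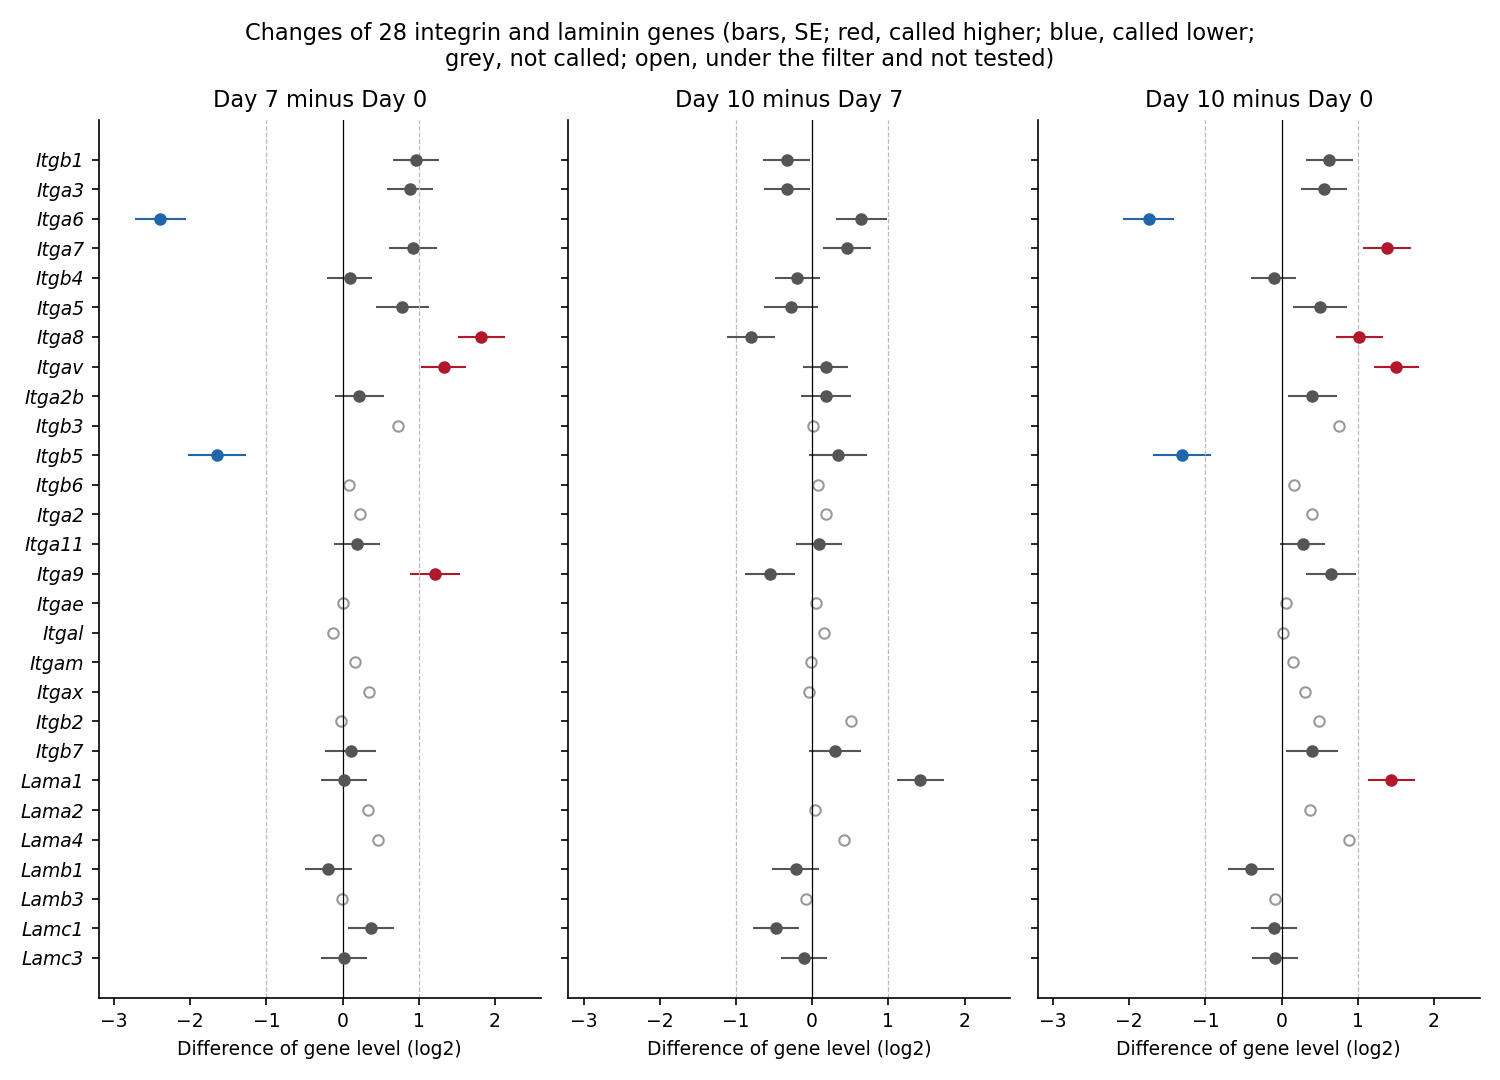
Change of the gene level in log2 (horizontal axis) for the 28 genes with probesets of their own in the 3 comparisons of days; bars are the standard error of limma and dashed lines mark a 2-fold change. Itga6 and Itgb5 lie on the left against Day 0, at −2.39 and −1.64 on Day 7, while most other subunits lie at or to the right of 0.

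Among the subunits of laminin receptors, Itga6 pairs with Itgb1 or Itgb4 and is a marker of many stem cells. Its level was 11.66 and 11.47 on Day 0, 9.39 and 8.96 on Day 7, and 9.47 and 10.18 on Day 10. Both Day 0 arrays were above all others, and both Day 10 arrays were above both Day 7 arrays. The change was −2.39 on the log2 scale (SE 0.34, 5.24-fold lower, adjusted p = 0.000215 in limma) on Day 7 against Day 0 and −1.74 (SE 0.34, 3.35-fold lower, adjusted p = 0.00371) on Day 10 against Day 0. The difference of 0.65 between Day 10 and Day 7 did not pass the test (SE 0.34, adjusted p = 0.353 in limma). Of its 28 probesets, 26 were lower on Day 7 than on Day 0, all 26 without overlap of the duplicates. The gene level is the median of these probesets on the same arrays. Such counts, here and for the genes below, are thus no independent support for a change. Both calls against Day 0 held under every alternative that was run.

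Itga7, a laminin receptor subunit best known from muscle, moved the other way. Its level was 6.56 and 6.19 on Day 0, 7.49 and 7.12 on Day 7, and 7.70 and 7.82 on Day 10. The days did not overlap, in the order Day 0, Day 7, Day 10. Against Day 0 the change was 0.92 on Day 7 (SE 0.31, adjusted p = 0.0595 in limma, not called) and 1.38 on Day 10 (SE 0.31, 2.6-fold higher, adjusted p = 0.00926 in limma). The Day 10 call was lost without Day 0 replicate 2 (change 1.20, adjusted p = 0.0798 in limma). All 27 probesets of Itga7 were higher on Day 10 than on Day 0.

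Itga3, the subunit that binds laminins with Itgb1, was measured at 7.85 and 8.16 on Day 0, 8.94 and 8.84 on Day 7, and 8.53 and 8.59 on Day 10. Day 0 was lowest and Day 7 highest without overlap, but the change of 0.88 on Day 7 against Day 0 did not pass the test (SE 0.30, adjusted p = 0.0614 in limma). Itgb4, which pairs only with Itga6 and anchors hemidesmosomes, lay between 6.52 and 6.82 on all arrays, and none of its changes was called (from −0.20 to 0.09). The common partner Itgb1 had levels of 11.45 and 11.75 on Day 0, 12.71 and 12.42 on Day 7, and 12.25 and 12.21 on Day 10. The days did not overlap, with Day 7 highest and Day 0 lowest. Its change on Day 7 against Day 0, 0.96 (SE 0.30, 1.95-fold, adjusted p = 0.0451 in limma), passed the p threshold but stayed under 2-fold, so it was not called. All 19 probesets of Itgb1 were higher on Day 7 than on Day 0 and lower on Day 10 than on Day 7, each without overlap of the duplicates.

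Subunits whose ligands carry the Arg-Gly-Asp (RGD) motif, such as fibronectin and vitronectin, were split. Itgav, the alpha subunit that pairs with several beta subunits including Itgb1, Itgb3 and Itgb5, had levels of 8.44 and 8.58 on Day 0, 9.80 and 9.87 on Day 7, and 9.95 and 10.08 on Day 10. The Day 0 arrays were far below the others, and both Day 10 arrays were above both Day 7 arrays. Its level was 1.32 higher on Day 7 (SE 0.30, 2.5-fold, adjusted p = 0.00697 in limma) and 1.50 higher on Day 10 (SE 0.30, 2.84-fold, adjusted p = 0.00429) than on Day 0. All 31 probesets were higher on Day 7 than on Day 0, without overlap of the duplicates. The Day 7 call was lost, with changes from 1.26 to 1.36, when Day 0 replicate 1 (adjusted p = 0.0555 in limma), Day 7 replicate 1 (0.0782) or Day 7 replicate 2 (0.0979) was left out. The Day 10 call held under every alternative that was run.

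Itgb5, the beta subunit of the vitronectin receptor with Itgav, went down while Itgav went up. Its level was 11.17 and 11.39 on Day 0, 9.55 and 9.73 on Day 7, and 9.36 and 10.60 on Day 10. Day 0 was above both later days, and the Day 10 duplicates lay on either side of the Day 7 duplicates. The change was −1.64 on Day 7 (SE 0.38, 3.12-fold lower, adjusted p = 0.00864 in limma) and −1.31 on Day 10 (SE 0.38, 2.48-fold lower, adjusted p = 0.0339), each against Day 0. All 20 probesets were lower on Day 7 than on Day 0 without overlap of the duplicates. The Day 7 call held under every alternative that was run. The Day 10 call rested on single arrays, since without Day 10 replicate 1 the change was −0.69 (adjusted p = 0.163 in limma), and it was also lost without Day 0 replicate 1 (adjusted p = 0.054) or Day 0 replicate 2 (adjusted p = 0.118) and when dim symbols were kept in the test (adjusted p = 0.0533).

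The gap between the Day 10 duplicates of Itgb5, 1.24, was the largest among the 28 genes on any day. The mean level of 7 markers of pluripotent and EC cells, which include the transcription factor Pou5f1, was 9.39 and 9.41 on Day 0, 6.60 and 7.30 on Day 7, and 7.11 and 8.79 on Day 10. Day 10 replicate 2 was thus nearer to Day 0 in these markers, as it was in Itgb5 (10.60) and Itga6 (10.18). Day 10 replicate 2 was also brighter as a whole, by 0.29 at the median of all symbols. The means of mesenchyme (9.42 against 8.88) and astrocyte and radial glia markers (9.86 against 8.91) were higher there too. Those of neuron markers (8.80 against 9.29) and blood cell markers (5.49 against 5.74) were lower there. On Day 7 the order differed, since replicate 2 was higher in the pluripotent and EC markers (7.30 against 6.60) and lower in Itga6 (8.96 against 9.39). The part of these in the levels of Itgb5 and Itga6 was not tested. In bulk RNA of mixed cultures, fewer cells of a type and less RNA per cell cannot be told apart. Of the 5 pluripotent and EC markers tested, 4 were called lower on Day 7 than on Day 0, where 4.5% of all symbols were lower. On Day 10 against Day 0, 3 were called lower, beside 7.43% of all symbols. Utf1, called lower on both days, read 5.27 and 5.98 on Day 7, under the filter level of 6.31. It entered the test through its other days, which raises the count called lower on Day 7. Zfp42 and Dppa5a were too dim for a test on all days.

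**Figure D2:**
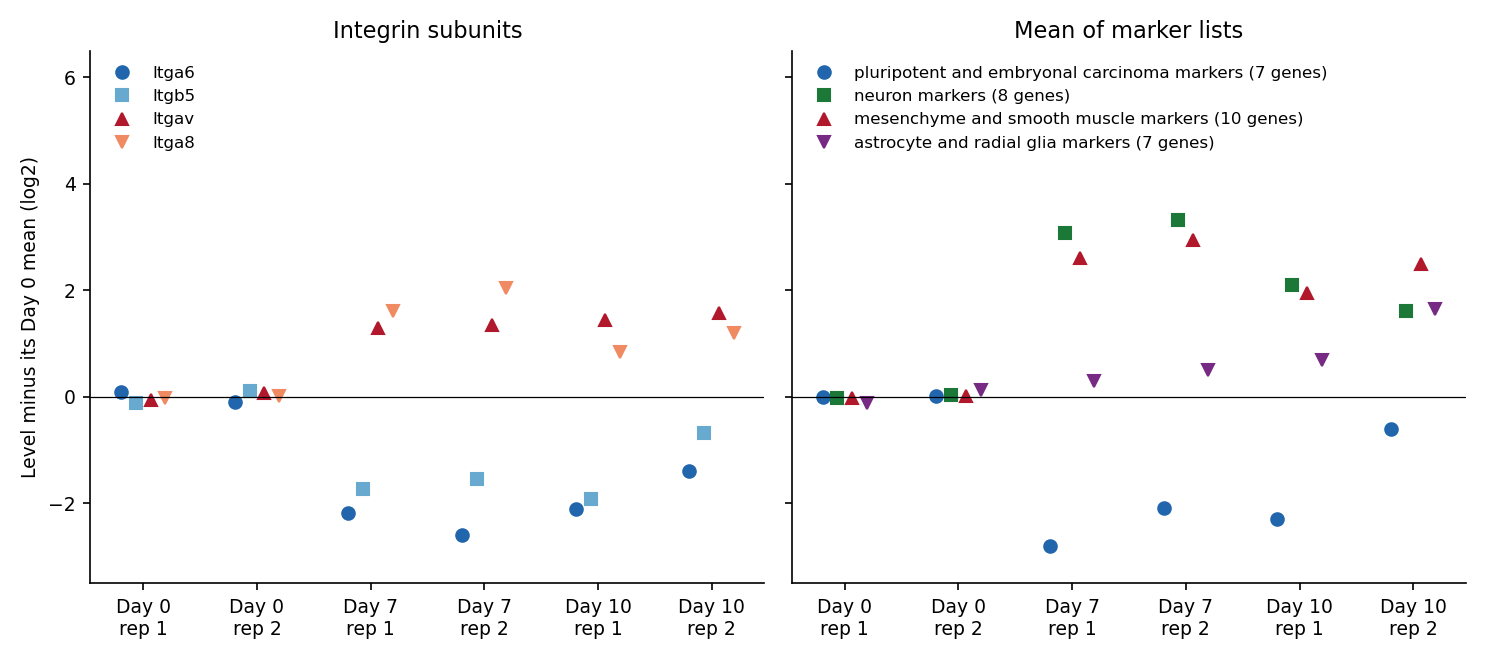
Level on each of the 6 arrays minus the Day 0 mean, in log2, for Itga6, Itgb5, Itgav and Itga8 (left) and for the mean of 4 marker lists (right), with the number of genes of each list in the key. On Day 10 replicate 2 Itgb5, Itga6 and the pluripotent and EC markers lie nearer to Day 0 than on Day 10 replicate 1.

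Itga8, which pairs with Itgb1 and binds fibronectin, tenascin and nephronectin, had levels of 5.47 and 5.50 on Day 0, 7.10 and 7.52 on Day 7, and 6.33 and 6.68 on Day 10. The 3 days did not overlap, with Day 7 highest. Its change on Day 7 against Day 0 was 1.82 (SE 0.31, 3.54-fold higher, adjusted p = 0.00108 in limma), and 33 of 33 probesets were higher, 27 of them without overlap. Between Day 10 and Day 0 the change was 1.02 (SE 0.31, 2.03-fold higher, adjusted p = 0.0417 in limma), just over the fold needed. This call was lost under 10 of 17 alternatives, with changes from 0.58 to 1.34 over the 17. The difference of −0.80 between Day 10 and Day 7 did not pass the test (adjusted p = 0.215 in limma). The Day 0 mean of Itga8 lay under the filter level of 6.31, so that the gene entered the test through its later days, and without Day 7 replicate 2 or with a filter at the 50th percentile it was not tested.

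Itga5, the alpha subunit of the fibronectin receptor, was measured at 8.69 and 8.31 on Day 0, 9.06 and 9.51 on Day 7, and 8.59 and 9.41 on Day 10. The duplicates of Day 7 and Day 0 did not overlap, those of Day 10 overlapped with both, and the Day 7 change of 0.78 did not pass the test (SE 0.35, adjusted p = 0.16 in limma). Itga2b, the platelet subunit, lay between 6.13 and 6.95 on all arrays and was not called on any day. Itgb3 and Itgb6, partners of Itgav, were under the filter. Itgb3 read 6.01 and 5.58 on Day 0, 6.57 and 6.48 on Day 7, and 6.44 and 6.64 on Day 10, with both later days above Day 0, and Itgb6 stayed between 4.68 and 5.21.

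Itga9, which pairs with Itgb1 and binds tenascin and the fibronectin EIIIA segment, had levels of 7.14 and 6.92 on Day 0, 8.34 and 8.13 on Day 7, and 7.33 and 8.03 on Day 10. The days did not overlap, with Day 7 highest and Day 0 lowest. Its change on Day 7 against Day 0 was 1.21 (SE 0.33, 2.31-fold higher, adjusted p = 0.0212 in limma), and all 29 probesets were higher. It was 0.65 on Day 10 against Day 0 (SE 0.33, adjusted p = 0.202 in limma, not called). The Day 7 call was lost under 6 of 19 alternatives, which were leaving out any single Day 0 or Day 7 array (changes from 1.10 to 1.32) and an offset of 64 in the logarithm or centring of the arrays (0.97 and 0.95, under the fold).

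The collagen receptor subunit Itga11 lay between 6.24 and 6.62 and was not called, and Itga2 was under the filter. Of the 6 subunits known mainly from leukocytes, only Itgb7 was tested (6.27 to 7.22, not called). Itgae, Itgal, Itgam, Itgax and Itgb2 were under the filter, as was Ptprc, the pan-leukocyte marker, and the mean level of 5 blood cell markers was 5.45 to 5.82 on all arrays. The 11 genes under the filter lay between 4.68 and 7.23 on all arrays.

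**Figure D3:**
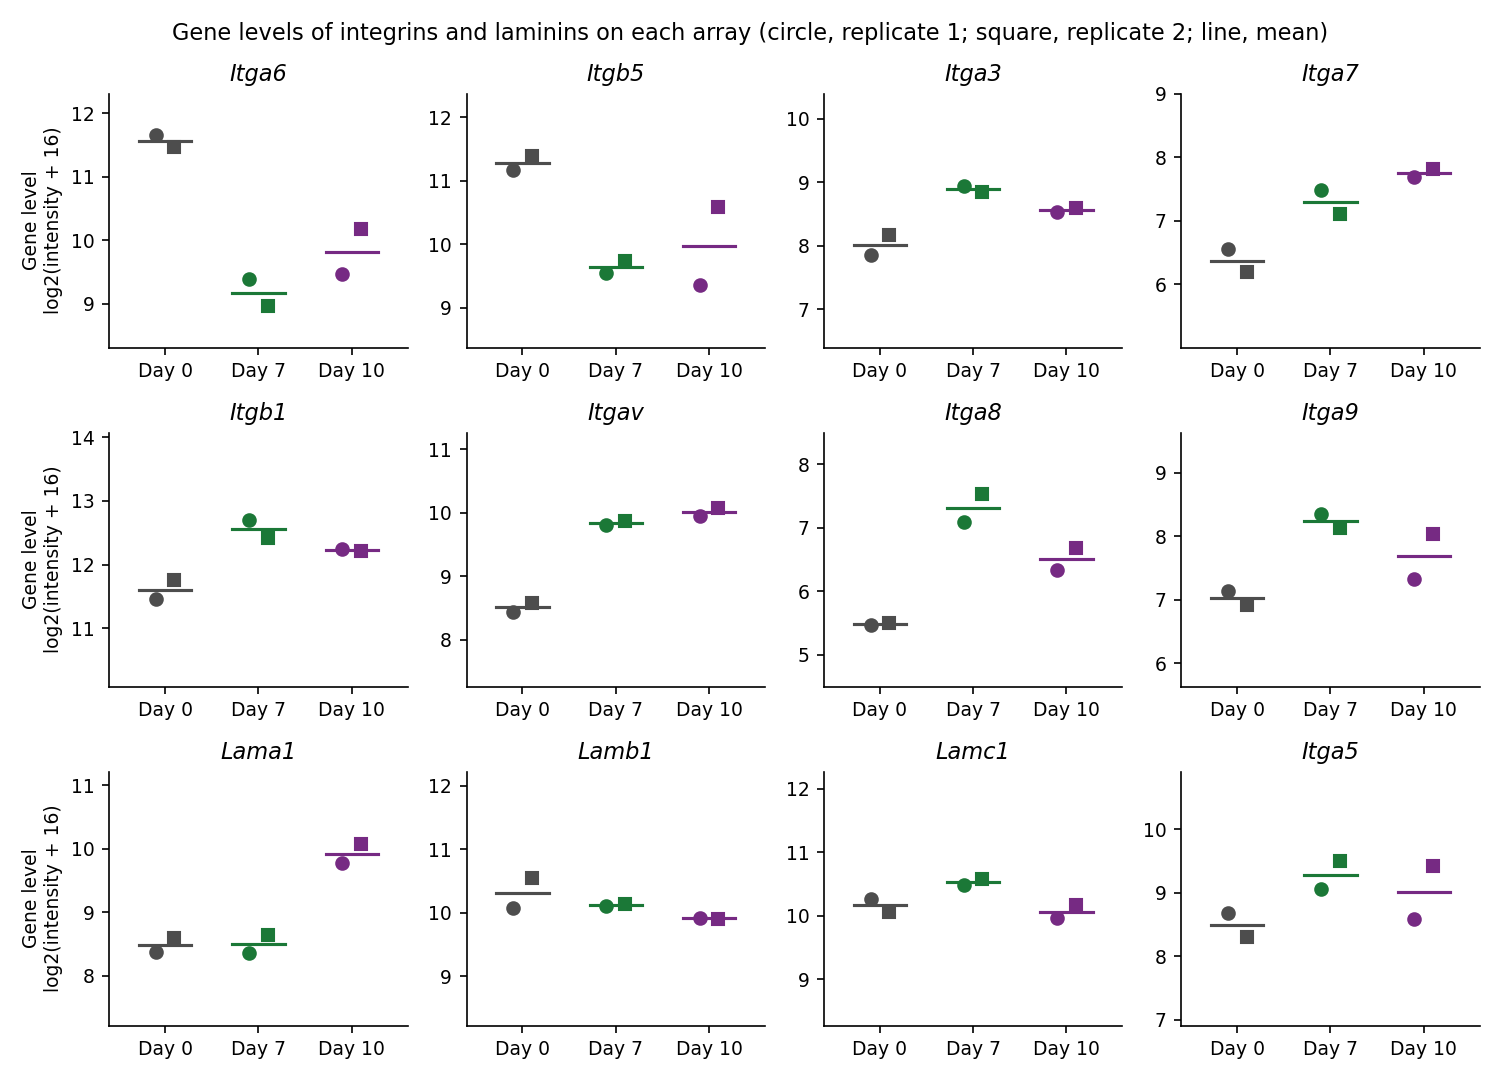
Gene level, log2(intensity + 16), of 12 integrin and laminin genes on each array; circles are replicate 1, squares replicate 2 and lines the mean of a day, and every panel spans 4 log2 units. Itga6 and Itgb5 drop after Day 0, Itgav and Itga8 rise, and Lama1 is level until Day 7 and higher on Day 10.

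Of the laminin chains only Lama1 was called. Lama1, the alpha chain of the first laminin of the embryo, had levels of 8.37 and 8.59 on Day 0, 8.36 and 8.64 on Day 7, and 9.78 and 10.06 on Day 10. The Day 0 and Day 7 arrays overlapped, and both Day 10 arrays were above all of them. Against Day 0 the change was 0.02 on Day 7 (SE 0.31, adjusted p = 0.98 in limma) and 1.44 on Day 10 (SE 0.31, 2.71-fold higher, adjusted p = 0.00679). Against Day 7 the Day 10 change was 1.42 (SE 0.31, 2.67-fold, adjusted p = 0.0569 in limma), which missed the threshold and passed it under 12 of 19 alternatives (adjusted p from 0.0107 to 0.459). All 77 probesets of Lama1 were higher on Day 10 than on Day 7, 73 of them without overlap of the duplicates.

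For the chains that join Lama1 in that laminin, no change was called. Lamb1, the beta1 chain, was measured at 10.08 and 10.55 on Day 0, 10.10 and 10.14 on Day 7, and 9.92 and 9.90 on Day 10. Day 10 was lowest without overlap, but its change of −0.40 against Day 0 did not pass the test (SE 0.31, adjusted p = 0.42 in limma). Lamc1, the gamma1 chain, was measured at 10.27 and 10.06 on Day 0, 10.49 and 10.58 on Day 7, and 9.96 and 10.16 on Day 10. Day 7 was highest and the Day 0 and Day 10 arrays overlapped, and the change of 0.37 on Day 7 against Day 0 did not pass the test (SE 0.30, adjusted p = 0.487 in limma). Lamc3 stayed between 6.39 and 6.73 and was not called. Lama2, the alpha chain of muscle and Schwann cell laminin, Lama4, that of vessel walls, and Lamb3, a chain of epidermal laminin, were under the filter. Lama4 read 7.23 on Day 10 replicate 2 and from 5.73 to 6.33 on the other 5 arrays.

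Markers of several cell types moved between the days. Of all symbols tested, 11.2% were called higher and 4.5% lower on Day 7 against Day 0. On Day 10 against Day 0 these shares were 7.27% and 7.43%. All 8 neuron markers were called higher on Day 7 than on Day 0, with a mean level of 7.16 and 7.21 on Day 0, 10.27 and 10.51 on Day 7, and 9.29 and 8.80 on Day 10. Of 8 markers of mesenchyme and smooth muscle tested, 7 were called higher on Day 7 and on Day 10 against Day 0, and the mean over 10 such genes was 6.91 and 6.94 on Day 0, 9.53 and 9.87 on Day 7, and 8.88 and 9.42 on Day 10. Both lists were higher on Day 7 than on Day 0, as Itgav, Itga8 and Itga9 were, and on Day 10 both means lay below their Day 7 values, as the means of Itga8 and Itga9 did, whereas Itgav was slightly higher on Day 10. The part of these cells in the integrin levels was not tested. Of 5 astrocyte and radial glia markers tested, 2 were called higher (Fabp7 and Vim) and 2 lower (Aldh1l1 and Gja1) on Day 7 against Day 0. Against the same Day 0 arrays, 3 were higher (Fabp7, Gfap and Vim) and 1 lower (Gja1) on Day 10. Only Gfap was called higher on Day 10 than on Day 7, with levels of 5.65 and 5.99 on Day 0, 6.13 and 6.90 on Day 7, and 9.55 and 10.50 on Day 10. The part of glial cells in the level of Lama1 was not tested. Of 5 tested markers of primitive and parietal endoderm, cells that make much laminin, 2 (Dab2 and Gata6) were called higher on Day 7 and 1 (Gata6) on Day 10 against Day 0, and the mean over 10 such genes stayed between 6.92 and 7.38. Of 6 endothelium markers only Kdr passed the filter and was called higher on Day 7 against Day 0, and the defining genes Pecam1 and Cdh5 lay between 5.63 and 6.38. Tek, also under the filter, went the other way, with 6.85 and 6.57 on Day 0, 5.70 and 5.20 on Day 7, and 5.21 and 5.60 on Day 10. Without overlap of the duplicates, Tie1 was lower and Erg higher on both later days than on Day 0. Of the markers called higher, Dcx, Mapt, Snap25, Col3a1, Pdgfrb, Fabp7, Gfap and Kdr had a Day 0 mean under the filter level. They were tested through their later days, which raises the counts called higher in their lists.

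Of 19 ligands of integrins other than laminin that were tested, 10 were called higher on Day 7 against Day 0 and 0 lower, with a median change of 1.57, where 11.2% of all symbols were higher and 4.5% lower. On Day 10 against Day 0, 10 were called higher and 1, Edil3, lower, with a median of 1.24, beside 7.27% and 7.43% of all symbols. Of the 19, 4 (Col3a1, Fbln5, Postn and Tnc) had a Day 0 mean under the filter level of 6.31 and entered the test through their later days, and they make up 3 of the 10 higher on Day 7 and 4 of the 10 on Day 10, so that these counts and medians are no support for a rise of the list. Changes of these genes are given in log2 only and start from a dim Day 0 level. Tnc (tenascin C, a ligand of Itga8, Itga9 and Itgav) had levels of 5.53 and 5.63 on Day 0, 11.43 and 11.79 on Day 7, and 10.96 and 11.79 on Day 10. Every later array was far above Day 0, with a change of 6.03 on Day 7. The collagens Col3a1 (4.89) and Col1a1 (3.98) and the matricellular protein Postn (periostin, 4.49) were also called higher on Day 7. Col1a1 and Col3a1 stand among the mesenchyme markers as well. Fn1, fibronectin, rose by 1.57 (SE 0.32, 2.97-fold, adjusted p = 0.00357 in limma), and Vtn, vitronectin, the ligand of Itgav with Itgb5, lay between 6.18 and 6.85 with a change of 0.01 (adjusted p = 0.991).

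Partners of laminin in the basement membrane were called higher in 3 of 11 cases on Day 7 against Day 0, where 11.2% of all symbols were higher, with a median change of 0.67. Nid1, the nidogen that links laminin to type IV collagen, had levels of 8.21 and 7.87 on Day 0, 10.02 and 10.41 on Day 7, and 9.04 and 10.12 on Day 10. Both later days were above Day 0, and the change was 2.17 on Day 7 (SE 0.37, 4.5-fold higher, adjusted p = 0.0011 in limma) and 1.54 on Day 10 (adjusted p = 0.014). The collagen IV chains Col4a5 (1.57) and Col4a6 (1.48) were called higher on Day 7, while the more common chains Col4a1 (0.67) and Col4a2 (0.88) and the proteoglycan Hspg2 (perlecan, 0.11) did not pass the test. By Day 10, Nid1 and Col4a5 were called higher than on Day 0, and the median change of the 11 genes was −0.21.

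At the membrane, 3 of 9 partners of integrins were called higher on Day 7 and on Day 10 against Day 0 (11.2% and 7.27% of all symbols), and 0 lower. Cav1, caveolin, had levels of 5.45 and 5.47 on Day 0, 9.30 and 9.34 on Day 7, and 8.38 and 9.28 on Day 10. Every later array was above Day 0, with a change of 3.86 on Day 7, but its Day 0 mean was under the filter level, so that it was tested through its later days. Cd47, which binds integrins with Itgav and thrombospondin, was 2.20 higher on Day 7 (SE 0.34, adjusted p = 0.000442 in limma), and the tetraspanin Cd82 was 1.72 higher (SE 0.33, adjusted p = 0.00227).

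On the inner side, 24 adaptors of focal adhesions, such as talin (Tln1), kindlin (Fermt2) and the kinases Ptk2 and Ilk, were tested. On Day 7 against Day 0 only the kinase Fyn was called higher (1.12). Parvb, a parvin that binds Ilk (−1.45), and Kank1, which binds talin (−1.12), were called lower. The median change was 0.03, and 11.2% of all symbols were called higher and 4.5% lower. On Day 10 against Day 0, 0 were higher and 4 lower: Parvb (−1.72), Kank1 (−1.31), the scaffold Bcar1 (−1.23) and the kinase Ptk2b (−1.09). In that comparison 7.27% of all symbols were called higher and 7.43% lower. On Day 10, Parvb read 5.66 and 6.308 and Ptk2b 6.21 and 6.24, all under the filter level of 6.313. Parvb also had a Day 7 mean under it (6.59 and 5.93 on the 2 arrays). Both genes entered the test through brighter earlier arrays, which raises the counts called lower. Of 7 genes for dystroglycan (Dag1), a laminin receptor outside the integrin family, for other such receptors and for enzymes that glycosylate dystroglycan, 0 were called by limma on any day, and the median change on Day 7 was −0.12. Between Day 10 and Day 7, limma called 0 genes of these 5 lists.

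**Figure D4:**
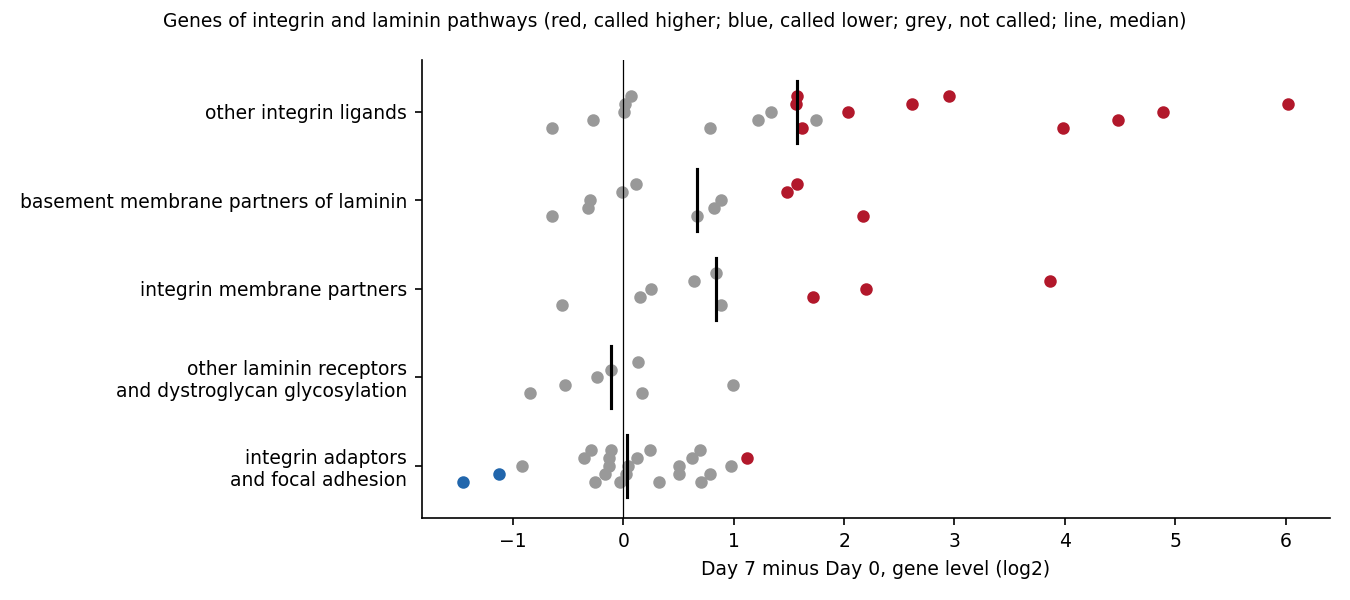
Change of the gene level on Day 7 against Day 0, in log2, for the tested genes of 5 lists of integrin and laminin pathways; each point is a gene, shifted vertically only to separate points, and the line is the median of the list. The median lies at 1.57 for integrin ligands other than laminin and at 0.03 for adaptors.

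Use of single exons was compared by the splicing index (SI), which is how far, in log2, a probeset shifted from Day 0 relative to the level of its gene. On Day 7, 331 probesets of 10 genes could be tested (Itga3, Itga5, Itga6, Itga9, Itgav, Itgb1, Itgb5, Lama1, Lamb1 and Lamc1), and 0 met both conditions for a call, an adjusted p below 0.05 and a shift of at least 2.55-fold, while limma gave 13 an unadjusted p under 0.05 and a lowest adjusted p of 0.332. Over all 116816 probesets 0% were called, and 5439 had an unadjusted p under 0.05 in limma. Of 328 probesets on Day 10, 0 were called by limma, with 17 at an unadjusted p under 0.05. Of all 116690 probesets, again 0% were called, and 8513 had such a p in limma. Most exons followed their gene, with 89.7% of the probesets of these genes within an SI of 0.5 on Day 7 and 85.4% on Day 10, beside 87.3% and 77.4% of all probesets. A shift of 2.55-fold was reached upwards by 3 probesets on Day 7 (0.447% of all probesets) and downwards by 1 (0.431%). On the later day it was reached upwards by 3 (0.682%), all of Itga6, and downwards by 0 (0.666%). In diffSplice, which sets an exon against the other exons of its gene, 4 of these genes' probesets were called on Day 7 and 2 on Day 10, where 268 and 310 probesets were called in all. diffSplice pools the residual spread over the probesets of a gene, which come from the same 6 arrays, so that probesets supply most of its degrees of freedom and its p-values are too small as a measure of replicate error.

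The SI is relative to the gene level, and that of Itga6 changed by −2.39 on Day 7 and −1.74 on Day 10 against Day 0. A probeset whose intensity stayed level or fell less thus has a positive SI. Itga6 probeset 5594042 had the largest SI of these genes on Day 10. Its intensity was 51.8 and 93.8 on Day 0, 103.5 and 79.6 on Day 7, and 234.7 and 676.1 on Day 10. Both Day 10 arrays were above all others, while the gene as a whole was below Day 0. Its Day 7 arrays overlapped in intensity with Day 0. The SI was 2.70 on Day 7 (SE 0.38, adjusted p = 0.332 in limma and 0.000699 in diffSplice) and 4.01 on Day 10 (SE 0.38, adjusted p = 0.399 in limma and 2.21e-08 in diffSplice). Itga6 probeset 5250863 read 374.9 and 214.9 on Day 0, 77.4 and 196.5 on Day 7, and 876.8 and 444 on Day 10. Day 10 was again highest, and Day 7 was lowest. Its SI was 1.30 on Day 7 and 2.84 on Day 10 (SE 0.71, adjusted p = 0.622 in limma and 0.000615 in diffSplice). Itga6 probeset 5510623 differed from these, since its Day 10 arrays overlapped in intensity with both other days. It read 902.5 and 825.5 on Day 0, 1023 and 1161 on Day 7, and 1169 and 627.1 on Day 10, where the Day 10 arrays lay on either side of all others, and its SI was 2.72 on Day 7 (SE 0.52, adjusted p = 0.486 in limma and 0.000608 in diffSplice) and 1.73 on Day 10. The Itga6 gene is known to make forms with different cytoplasmic tails, A and B, by alternative splicing, but the place of these probesets in the gene was not known here and cross-hybridization was not tested.

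**Figure D5:**
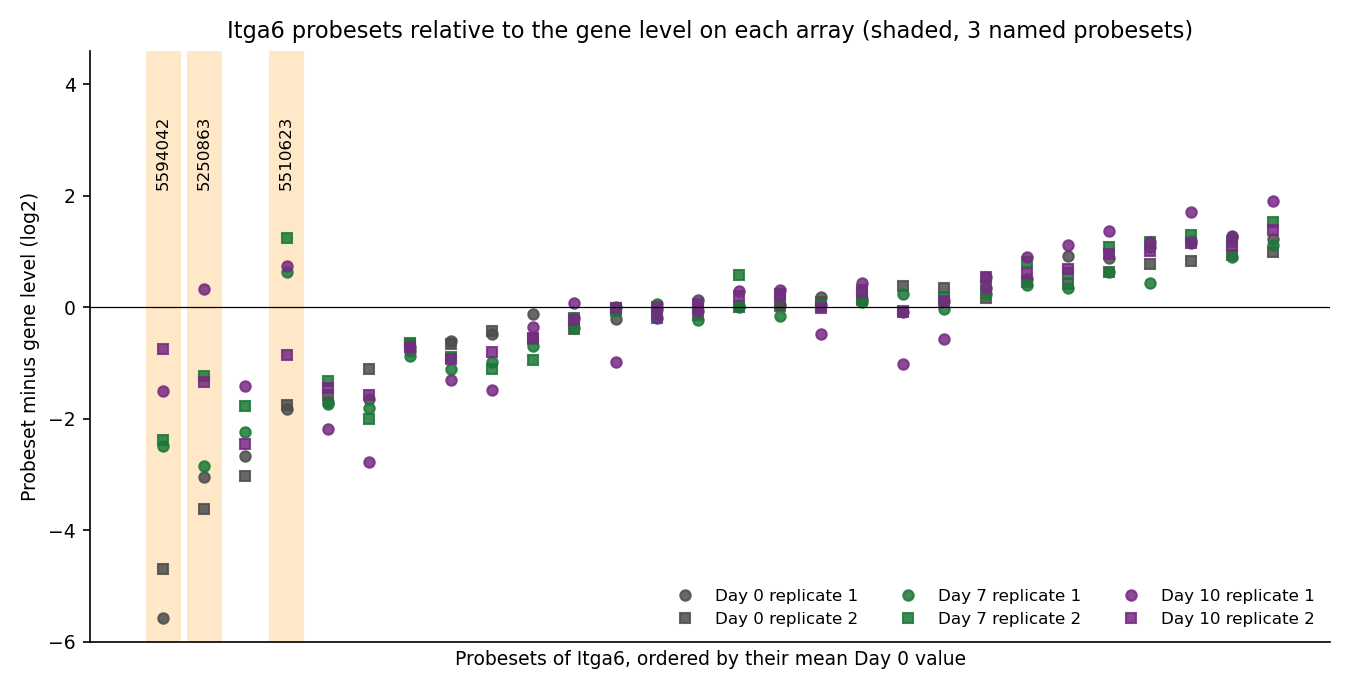
Each of the 28 probesets of Itga6 on the horizontal axis, ordered by the Day 0 mean, with log2(intensity + 16) of the probeset minus the gene level on each array on the vertical axis. Probesets 5594042, 5250863 and 5510623 (shaded) lie well below the gene on Day 0 and, relative to it, higher on later arrays. The gene level itself fell after Day 0, and most other probesets keep their place relative to it.

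The remaining probesets past that shift were 1 of Itga3 and 1 of Itgb1. Itga3 probeset 5107290 read 162.5 and 44.6 on Day 0, 40.9 and 49.4 on Day 7, and 160.9 and 112.5 on Day 10. The Day 0 duplicates lay far apart, and its SI on Day 7 was −1.65 (SE 0.59, adjusted p = 1 in limma and 0.0385 in diffSplice). Itgb1 probeset 5312931 read 247.6 and 697.4 on Day 0, 2761 and 1874 on Day 7, and 1251 and 904.9 on Day 10. These intensities did not overlap between the 3 days, in the same order of days as the level of Itgb1 itself, with Day 7 highest. Relative to the gene, the probeset lay at −3.41 and −2.27 on Day 0, −1.27 and −1.54 on Day 7, and −1.94 and −2.36 on Day 10. On that scale Day 0 and Day 10 overlapped, and the Day 0 duplicates lay far apart. The SI on Day 7 was 1.44 (SE 0.40, adjusted p = 0.846 in limma and 0.022 in diffSplice).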

How the data were processed

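The values are intensities of 228090 core probesets, which the authors made by sketch normalization and PLIER according to the paper, whereas RMA and Affymetrix Expression Console are the tools in the submitters' processing notes, with no version. The deposited intensities are on a linear scale. Of the per-sample columns, 0 were left unmapped. Of the probesets, 208093 had 1 symbol, 4327 several and 15670 none. Of 16285 symbols, 14111 are current in RefSeq GRCm38.p6 and 2131 were updated (Lamb1-1 to Lamb1), which left 16263.

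An offset of 16 was added before log2, and the gene level was the median over probesets. All 6 arrays went into 1 fit of limma 3.58.1 (R 4.3.3) with day as the term, and Benjamini-Hochberg adjustment ran over all symbols that reached the 30th percentile. SI needed genes of at least 4 probesets that reached the 45th percentile on both days, and probesets that reached the 25th percentile on either. The tests were checked on simulated data. The median intensity was 156 to 216 an array, 8.9% to 11.9% of probesets lay under the offset, and gene levels of duplicates correlated at 0.956 to 0.982. The precision of these intensities is limited by having 2 arrays a day. Replicate numbers were not used to pair the samples in the main fit, and whether they mark a shared batch was not known.

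The genes and the 12 lists of partners, ligands and markers were chosen with earlier results of these data known. Genes called in any comparison were named with every array, other list genes by up to 4 called members with the largest change, and probesets by a shift of at least 2.55-fold. A few further genes (such as Fn1, Vtn, Edil3 and Gfap) were named for their role after their values were seen. Detection p-values and the positions and cross-hybridization of probesets were not used here.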

Additional observations from a re-analysis of the deposited data

How the results depend on the processing

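With 2 arrays a day the spread is poorly known, and with 1 array left out the other one of its day was assumed to vary like the others. Over 417 values of 25 results under alternative settings, 372 kept their side of the threshold, 24 lost it, 21 gained it and 0 reversed. With another summary or filter, symbols called on Day 10 against Day 7 moved from 79 to 245 (median polish), 470 (mean of probesets), 44 (offset 64), 197 (quantile normalization), 168 (arrays centred on their median), 47 (no filter), 160 (50th percentile), 208 (only the 4 arrays compared) and 165 (trend and robust). The count of integrin and laminin genes called there was 1, Lama1, in place of 0 under those settings other than the offset of 64 and no filter, and also when probesets under the offset on all arrays were left out. Whether arrays with the same replicate number share a batch was not known. The duplicates' differences correlated at −0.08 between Day 0 and Day 7 and at 0.33 between Day 0 and Day 10. Between Day 7 and Day 10 the correlation was −0.03. With the replicate block, 559 symbols and 1 gene of the set, Lama1, were called on Day 10 against Day 7, and the block changed no other call of these genes.

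Leaving out 1 array gave 976 to 1958 symbols on Day 7 against Day 0 (1791 with all arrays; 976 without Day 7 replicate 1 and 991 without Day 7 replicate 2), 33 to 1361 on Day 10 against Day 7 and 1044 to 2754 on Day 10 against Day 0 (1674 with all arrays; 2754 without Day 10 replicate 2). Of the integrin and laminin genes 2 to 5, 0 to 1 and 3 to 5 were then called in the same order of comparisons. SI calls rose from 0 to 6 on Day 7 and to 1 on Day 10 with an offset of 1, and in diffSplice to 268 and 310, of which 4 and 2 were in these genes. The share of higher among the called moved from 71.4% to 48.6% on Day 7 against Day 0 when arrays were centred, from 51.9% to 69% (quantile) and 70.8% (centred) on Day 10 against Day 7, and from 49.5% to 58.8% and 41.6% on Day 10 against Day 0. Centring moved the median change of all symbols from 0.10 to −0.16, from −0.25 to −0.03 and from −0.11 to −0.16 in the 3 comparisons, and quantile normalization moved it to −0.01, −0.03 and −0.0024. Why these settings differ was not tested.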
